A study of Mus musculus with 7 samples.

Results

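T cell and intraepithelial lymphocyte genes were examined in the duodenum of mice given a liver X receptor agonist. The group holds 35 genes chosen by name, out of 47069 genes in the deposited table. It covers the CD3 chains of the T cell receptor, the coreceptors, surface receptors, signalling proteins, cytotoxic effectors, chemokines, gut homing receptors and lineage regulators. RNA was sequenced from the duodenum of 7 male mice, with 1 library per mouse. Sample labels name the strain C57BL/6, the series text C57BL/6J, and the mice were 8 to 12 weeks old. The 4 vehicle mice received 0.5% carboxymethylcellulose, and the 3 treated mice received T09 at 50 mg/kg/day. T09 is T0901317, a synthetic agonist of the liver X receptors. How long they were treated is not stated in the sources used here.

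Intraepithelial lymphocytes are T cells that lie between the absorptive cells of the gut lining. Most of them carry CD8, store granzymes and stay in place through the integrin alphaE beta7, which binds E-cadherin on enterocytes. Many use a gamma delta receptor, and epithelial butyrophilin-like proteins and interleukin 15 help to maintain them. Liver X receptors are oxysterol-sensing nuclear receptors that switch on sterol export and lipid synthesis genes, and they are also present in lymphocytes and macrophages.

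No gene of the group passed the test for a change with T09. Of the 35 genes, 30 had enough counts to be tested and 5 (Cd2, Cd28, Eomes, Klrk1 and Sh2d1a) did not. By edgeR's quasi-likelihood test with Benjamini-Hochberg adjustment over all genes, 0 of the 30 were called at an adjusted p under 0.05. Over all 14250 genes tested the share called was 4.31%. At an unadjusted p under 0.05 the count was again 0 of 30, against 17.9% of all genes. DESeq2 called 0 of 30 (7.68% of all genes) and limma-voom 0 of 30 (3.73%). Vehicle and T09 values overlapped for all 35 genes, and the groups did not overlap for 16.8% of all genes tested (9.69% with T09 lower and 7.07% with T09 higher). Because vehicle 4 was the lowest library for all 30 genes tested, T09 could not lie lower without overlap in them. The median log2 fold change, T09 over vehicle, was 0.06 for the 30 genes and 0.02 for all genes, with 17 of the 30 above 0 and 13 below.

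Values varied between libraries, and with 1 library per mouse the animal and the handling of its sample cannot be told apart. The library of vehicle 4 was the lowest of the 7 for 32 of 35 genes, including all 30 tested, while it was the lowest for 19.0% of all genes tested. The other vehicle libraries had, at their median, 3.62-fold more of a tested gene than vehicle 4 (median over the 30 genes, range 1.80 to 8.86). T09 2 was the lowest of the 3 T09 libraries for 30 of 35 genes. These spreads set the precision of every comparison here. The standard error of the log2 fold change was 0.33 to 0.74, with a median of 0.45. All 30 of the 95% intervals held 0, and 23 of them reached beyond 2-fold in at least 1 direction. Changes of that size in these genes were therefore not resolved with 4 and 3 mice.

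**Figure D1:**
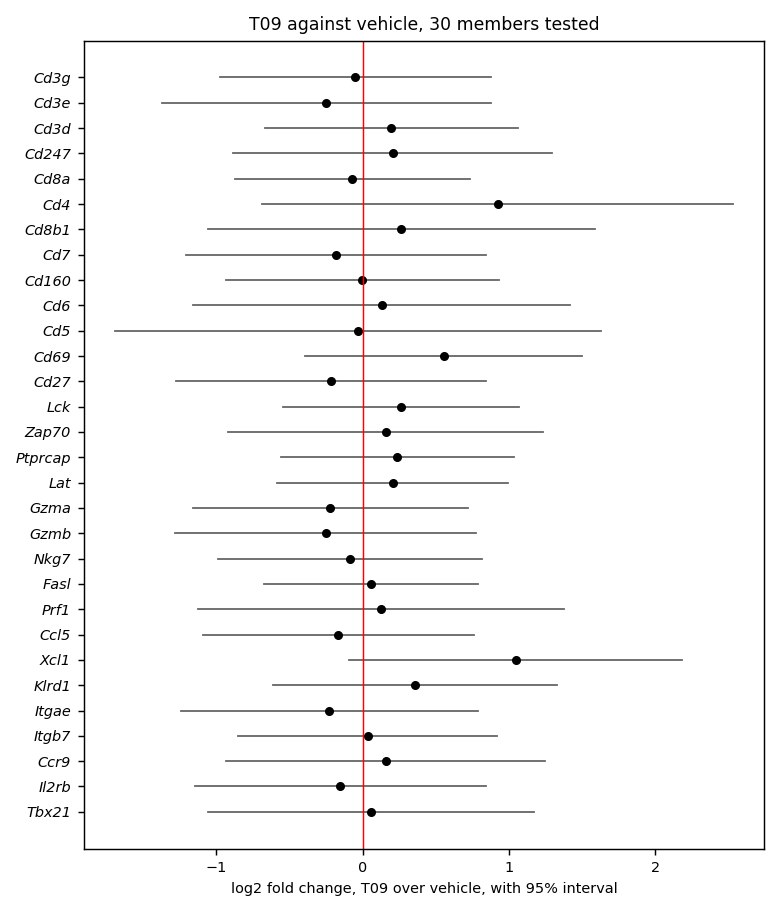
Log2 fold change of T09 over vehicle for the 30 genes tested, from edgeR, as points with lines for the 95% intervals, ordered by role. All 30 lines cross the red line at 0, and the points of 26 genes lie within 0.3 of it.

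Libraries held 15395535 to 20494485 counts in genes, of which 2929 (vehicle 4) to 11250 (vehicle 1) fell on the 35 genes. Genes of enterocytes took 4.92% to 5.18% of the counts of every library. Between T09 and vehicle, edgeR called 2 of 12 enterocyte genes higher (Fabp1 and Fabp2) and 1 of 10 fibroblast genes lower (Dpt). The defining markers of intraepithelial lymphocytes, namely Cd3d, Cd3e, Cd3g, Cd8a, Itgae, Gzma, Gzmb and Trdc, were detected in all 7 libraries. Across all genes, 205 were higher with T09 (1.44%) and 409 lower (2.87%). All 12 smooth muscle markers were among the lower genes, at 0.162% to 0.261% of counts in vehicle and 0.0455% to 0.0734% in T09 libraries. What part that difference in smooth muscle RNA has in the values of the lymphocyte genes was not tested. In RNA of whole tissue, fewer cells of a type and less RNA per cell cannot be told apart, for muscle and for lymphocytes. Values below are CPM, each gene's count scaled to a common library size with TMM factors, given in the order vehicle 1 to 4 and then T09 1 to 3.

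Levels between genes were compared by the authors' FPKM, which divides by gene length. Gzma had the highest median over the 7 libraries, 194 FPKM. Ccl5 followed with 82.7, Gzmb with 37.7, Cd3g with 28.0, Cd7 with 21.3 and Nkg7 with 15.8 FPKM. Of the 35 genes, 9 had a median over 10 FPKM and 11 a median under 1, and the lowest was Eomes with 0.0412 FPKM. By this measure granzyme A and the chemokine Ccl5 stood highest. The FPKM of Ccl5 did not match its listed length, and in mean CPM Gzmb (55.7) exceeded Ccl5 (46.0).

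The CD3 chains carry the signal of the T cell receptor into the cell. Cd3g, which encodes the gamma chain, had 19.7, 16.003, 25.3 and 5.60 CPM in vehicle and 19.9, 11.2 and 17.0 CPM in T09 mice. Vehicle 4 lay below all others, and the T09 values fell inside the vehicle range. Its log2 fold change was -0.05 (SE 0.41, p adjusted by edgeR = 0.970), with vehicle at 16.7 ± 8.31 CPM (SD, n = 4) and T09 at 16.1 ± 4.45 CPM (SD, n = 3). Cd3e, the epsilon chain, had 12.3, 9.92, 15.3 and 2.53 CPM in vehicle and 12.3, 5.36 and 7.52 CPM in T09 mice. Cd3d, the delta chain, had 7.05, 5.77, 10.7 and 3.61 CPM in vehicle and 8.93, 4.14 and 10.2 CPM in T09 mice. For both chains vehicle 3 was the highest and vehicle 4 the lowest. Cd247, the zeta chain that docks ZAP70, ranged from 0.431 CPM in vehicle 4 to 2.03 CPM in T09 1. The genes of the 3 CD3 proper chains sit side by side on chromosome 9, with 1361 bases between Cd3g and Cd3d and 11690 between Cd3d and Cd3e.

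Vehicle 4 was the lowest library for 32 of 35 genes and vehicle 3 the highest for 16, including Cd3d, Cd3e and their neighbour Cd3g. The promoters of Cd3d (chr9:44981536-44981835, plus strand) and Cd3e (chr9:45009562-45009861, minus strand) are shown as examples. They are RefSeq windows on GRCm38.p6, from 250 bases before to 50 bases after the gene's start, and capitals mark the ETS core AGGAAG on either strand, a letter string bound by ETS1 and related factors of lymphocytes.
Cd3d: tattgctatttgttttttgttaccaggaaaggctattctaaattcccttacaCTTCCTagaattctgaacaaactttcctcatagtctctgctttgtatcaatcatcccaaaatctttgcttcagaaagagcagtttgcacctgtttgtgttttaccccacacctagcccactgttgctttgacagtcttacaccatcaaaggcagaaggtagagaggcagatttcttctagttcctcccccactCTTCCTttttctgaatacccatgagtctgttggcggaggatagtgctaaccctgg
Cd3e: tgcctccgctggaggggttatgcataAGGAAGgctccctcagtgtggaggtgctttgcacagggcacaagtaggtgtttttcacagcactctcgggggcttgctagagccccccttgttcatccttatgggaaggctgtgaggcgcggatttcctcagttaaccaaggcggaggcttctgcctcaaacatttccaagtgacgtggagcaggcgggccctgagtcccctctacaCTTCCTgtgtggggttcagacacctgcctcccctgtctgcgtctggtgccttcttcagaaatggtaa
Each window shown held 2 matches, and the window of Cd3g held 0. Such an entry was found for 22 of the 35 genes, and 15 of those 22 windows (68.2%) held the ETS core, compared with 35.1% of all 27025 windows. The RUNX core TGTGGT, searched on both strands like all motifs here, was in 9 of 22 windows (40.9%) and in 16.9% of all windows. The T-box core GGTGTGA, the letters that T-bet and Eomes recognise, was in 2 of 22 (9.09%, in Nkg7 and Xcl1) and in 3.96% of all. A direct repeat of AGGTCA with 4 bases between, the form that liver X receptors bind with their RXR partner, was in 0 of 22 windows and in 3 of all windows (0.0111%). These are letter matches only, and a window without a match says nothing about the factor.

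Coreceptors bind MHC molecules together with the receptor, CD8 on cytotoxic and most intraepithelial T cells and CD4 on helper T cells. Cd8a, the CD8 alpha chain, had 38.7, 36.2, 47.5 and 12.3 CPM in vehicle and 33.4, 27.0 and 35.7 CPM in T09 mice. The T09 libraries lay between vehicle 4 and the other vehicle libraries. The log2 fold change was -0.07 (SE 0.36, p adjusted by edgeR = 0.946). Cd8b1, the beta chain that joins alpha in conventional CD8 T cells, had 1.97, 2.15, 1.97 and 0.269 CPM in vehicle and 2.08, 0.939 and 2.72 CPM in T09 mice. The vehicle 1 to 3 values were close to each other, and vehicle 4 was lowest. The Cd8b1 and Cd8a genes are 35932 bases apart on chromosome 6. Their count ratio, Cd8b1 over Cd8a, was 0.0435 ± 0.0161 in vehicle (SD, n = 4) and 0.0578 ± 0.0210 in T09 (SD, n = 3), two-sided exact permutation p = 0.429, adjusted over 5 ratios 0.905.

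Cd4 had 3.48, 1.26, 1.97 and 0.539 CPM in vehicle and 7.56, 1.21 and 1.48 CPM in T09 mice. T09 1 alone stood above the vehicle range, and T09 2 and 3 were inside it. The log2 fold change of 0.92 (SE 0.72, p adjusted by edgeR = 0.562) turned to -0.42 without T09 1. The ratio of Cd4 to Cd8a counts was 0.0898, 0.0348, 0.0416 and 0.0439 in vehicle and 0.227, 0.0451 and 0.0414 in T09 mice. T09 1 and, less so, vehicle 1 had more Cd4 per Cd8a than the other 5 libraries, and the groups did not differ beyond their spread (two-sided exact permutation p = 0.514, adjusted over 5 ratios 0.905). The smallest p that the 35 splits of 7 libraries allow is 0.0286.

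Among the costimulatory and accessory surface receptors, Cd7 was the most abundant. Cd7, an immunoglobulin family receptor of T and NK cells, had 20.9, 16.6, 26.9 and 4.74 CPM in vehicle and 18.6, 10.7 and 16.3 CPM in T09 mice. The libraries stood in an order like that of Cd3g, with vehicle 3 highest and vehicle 4 lowest, and the log2 fold change was -0.19 (SE 0.46, p adjusted by edgeR = 0.879). Cd160, a receptor for the TNF receptor family protein HVEM, had 4.10, 3.67, 4.84 and 1.51 CPM in vehicle and 4.63, 1.93 and 3.97 CPM in T09 mice. Cd6, a scavenger receptor family protein that modulates receptor signalling, had 3.22, 5.40, 3.88 and 0.647 CPM in vehicle and 4.11, 1.82 and 4.85 CPM in T09 mice. In both genes vehicle 4 and T09 2 were the lowest of their groups. Cd69, an early activation and tissue retention marker, had 0.830, 1.21, 1.40 and 0.539 CPM in vehicle and 1.98, 0.828 and 1.54 CPM in T09 mice. T09 1 and T09 3 were above all vehicle libraries and T09 2 was not, and the log2 fold change was 0.55 (SE 0.42, p adjusted by edgeR = 0.552).

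The other surface receptors were rarer. Cd5, a dampener of receptor signalling that lies 50366 bases from Cd6 on chromosome 19, ranged from 0.216 CPM in vehicle 4 to 2.83 CPM in vehicle 2. Cd27, a TNF family costimulatory receptor, ranged from 0.377 to 1.78 CPM. Cd28, the main costimulatory receptor of conventional T cells, had 1.70 CPM in T09 1 and 0.127 to 0.474 CPM in the other libraries. Cd2, an adhesion receptor, likewise had 0.850 CPM in T09 1 and at most 0.415 CPM elsewhere. Cd28 and Cd2 were too low to be tested.

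Proximal signalling proteins act directly below the receptor. Lck, the kinase that phosphorylates CD3 chains, had 13.4, 13.5, 14.8 and 4.31 CPM in vehicle and 14.6, 10.5 and 16.3 CPM in T09 mice. Vehicle 4 was the lowest of the 7, and the other 6 libraries were within 10.5 to 16.3 CPM (log2 fold change 0.26, SE 0.36, p adjusted by edgeR = 0.764). Zap70, the kinase recruited to phosphorylated chains, had 8.87, 7.40, 12.9 and 2.05 CPM in vehicle and 10.1, 5.69 and 10.2 CPM in T09 mice. Ptprcap, a small protein associated with the CD45 phosphatase, had 6.54, 6.98, 9.29 and 3.18 CPM in vehicle and 9.17, 4.64 and 9.11 CPM in T09 mice. In both, the T09 libraries lay within the vehicle range. Lat, the adaptor that ZAP70 phosphorylates, ranged from 4.04 to 11.2 CPM, and Sh2d1a, the adaptor SAP, from 0 to 0.331 CPM.

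Cytotoxic effectors were the most abundant role of the group. Gzma, the serine protease granzyme A, had 208, 170, 283 and 57.3 CPM in vehicle and 167, 116 and 179 CPM in T09 mice. All T09 values fell between vehicle 4 and vehicle 1, and the means were 179 ± 94.2 (SD, n = 4) and 154 ± 33.5 CPM (SD, n = 3). The log2 fold change was -0.22 (SE 0.42, p adjusted by edgeR = 0.837), with a 95% interval from 0.449-fold to 1.64-fold. Gzmb, granzyme B, had 79.9, 53.2, 89.9 and 16.5 CPM in vehicle and 64.8, 36.7 and 48.9 CPM in T09 mice (log2 fold change -0.25, SE 0.46, p adjusted by edgeR = 0.83). Vehicle 4 was again the lowest and vehicle 3 the highest. The count ratio of Gzmb to Gzma was 0.326 ± 0.0416 in vehicle (SD, n = 4) and 0.326 ± 0.0580 in T09 (SD, n = 3), two-sided exact permutation p = 0.971, adjusted over 5 ratios 0.971. Per library the ratio ranged from 0.273 in T09 3 to 0.388 in T09 1. T09 3 had more Gzma but less Gzmb than T09 1, so the granzymes did not always move together. Nkg7, a granule membrane protein, had 14.2, 10.4, 15.4 and 3.77 CPM in vehicle and 11.8, 7.35 and 11.8 CPM in T09 mice. Fasl, the death ligand, ranged from 1.08 to 2.36 CPM, and Prf1, the pore-forming perforin, from 0.323 to 1.65 CPM.

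The promoters of the granzymes, Gzma (chr13:113100932-113101231, minus strand) and Gzmb (chr14:56262285-56262584, minus strand), are shown because these were the most abundant effectors. They come from the same RefSeq windows on GRCm38.p6, and capitals mark the RUNX core TGTGGT on either strand, the letters that RUNX3 of CD8 T cells recognises.
Gzma: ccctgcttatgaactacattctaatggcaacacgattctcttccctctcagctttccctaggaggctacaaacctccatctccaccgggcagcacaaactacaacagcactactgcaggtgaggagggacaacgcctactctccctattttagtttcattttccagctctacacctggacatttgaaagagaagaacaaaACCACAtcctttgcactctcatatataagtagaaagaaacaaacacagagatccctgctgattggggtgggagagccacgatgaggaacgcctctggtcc
Gzmb: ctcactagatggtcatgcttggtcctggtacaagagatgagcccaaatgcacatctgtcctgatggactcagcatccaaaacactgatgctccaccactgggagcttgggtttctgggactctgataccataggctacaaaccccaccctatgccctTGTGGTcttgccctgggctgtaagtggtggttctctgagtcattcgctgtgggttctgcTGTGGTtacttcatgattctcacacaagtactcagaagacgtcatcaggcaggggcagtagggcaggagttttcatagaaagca
The Gzma window held 1 match and the Gzmb window 2, and neither held the ETS core.

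**Figure D2:**
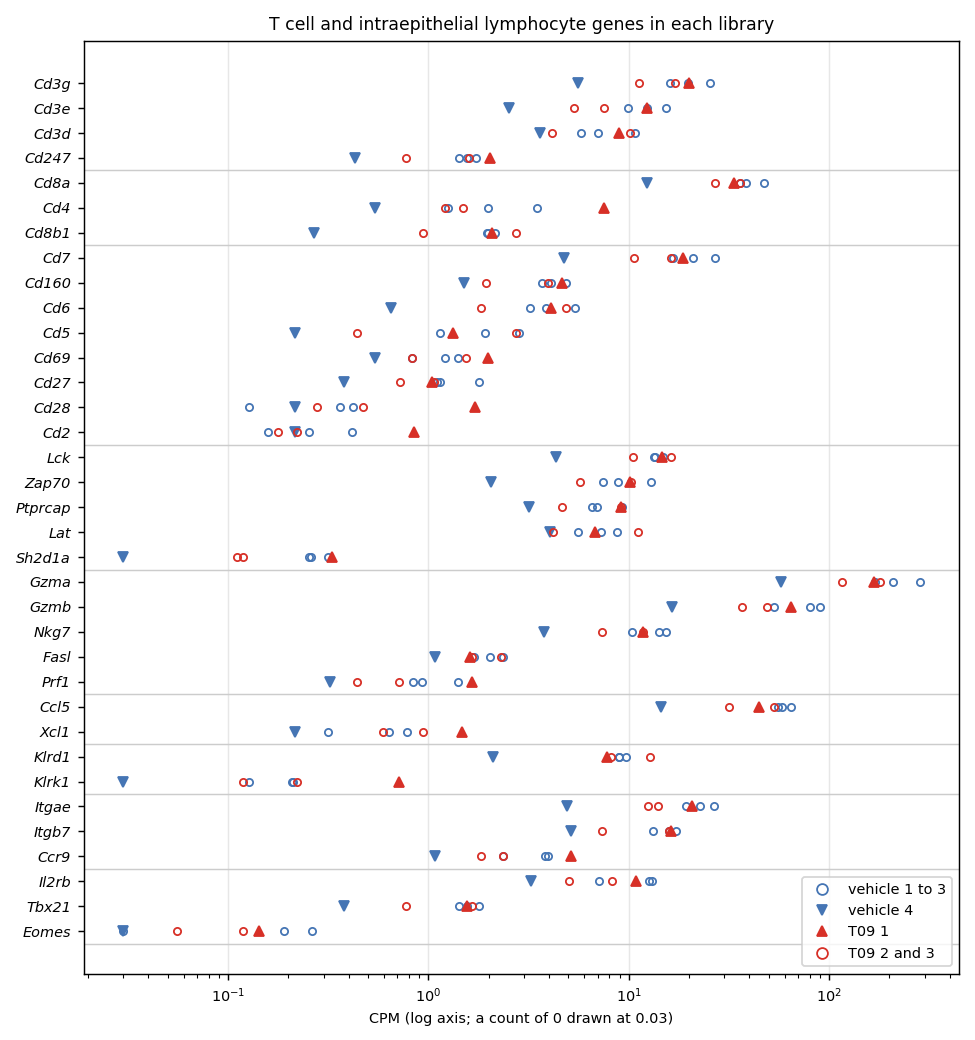
CPM of the 35 genes in each of the 7 libraries on a log axis, with genes grouped by role. Vehicle 4 (blue triangle) is leftmost for 32 genes and tied with vehicle 1 at 0 for Eomes, and T09 1 (red triangle) stands apart to the right for Cd4, Cd28, Cd2 and Klrk1.

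Of the chemokines, Ccl5, which draws T cells and monocytes, had 55.8, 58.5, 64.4 and 14.5 CPM in vehicle and 44.5, 31.6 and 53.0 CPM in T09 mice. The T09 libraries lay below vehicle 1 to 3 and above vehicle 4 (log2 fold change -0.17, SE 0.41, p adjusted by edgeR = 0.880). Xcl1, which draws cross-presenting dendritic cells through XCR1, had 0.778, 0.315, 0.636 and 0.216 CPM in vehicle and 1.47, 0.939 and 0.592 CPM in T09 mice. T09 1 and T09 2 exceeded all vehicle libraries while T09 3 was below vehicle 1 and 3. Its log2 fold change of 1.05 (SE 0.51) was the largest of the 30 genes and its p the smallest, 0.0676 before and 0.322 after adjustment by edgeR over all genes. The NK-type lectin receptors read stress and MHC class I ligands. Klrd1, the CD94 chain, had 9.65, 8.97, 8.97 and 2.10 CPM in vehicle and 7.75, 8.12 and 12.7 CPM in T09 mice. The 6 libraries other than vehicle 4 lay within 7.75 to 12.7 CPM (log2 fold change 0.36, SE 0.43, p adjusted by edgeR = 0.727). Klrk1, the NKG2D receptor, 11547 bases from Klrd1 on chromosome 6, had 0.207, 0.210, 0.127 and 0 CPM in vehicle and 0.709, 0.221 and 0.118 CPM in T09 mice, too low to be tested.

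Homing and retention genes place the cells in the gut. Itgae, the alphaE integrin chain (CD103), had 26.6, 19.4, 22.8 and 4.90 CPM in vehicle and 20.7, 12.4 and 14.0 CPM in T09 mice. T09 2 and 3 were below vehicle 1 to 3 and above vehicle 4, and the log2 fold change was -0.23 (SE 0.45, p adjusted by edgeR = 0.848). Itgb7, its beta7 partner, had 15.8, 13.3, 17.2 and 5.17 CPM in vehicle and 16.3, 7.35 and 15.8 CPM in T09 mice. Ccr9, the receptor for the small-intestinal chemokine CCL25, had 3.94, 3.83, 2.36 and 1.08 CPM in vehicle and 5.15, 1.82 and 2.37 CPM in T09 mice. The ratio of Itgae to Cd3e counts, 1.88 ± 0.283 in vehicle (SD, n = 4) and 1.95 ± 0.329 in T09 (SD, n = 3), did not differ beyond its spread (two-sided exact permutation p = 0.8, adjusted over 5 ratios 0.971). Of the regulators, Il2rb, the receptor chain for interleukins 2 and 15, had 13.02, 7.08, 12.7 and 3.23 CPM in vehicle and 10.9, 5.03 and 8.29 CPM in T09 mice. Vehicle 4 and T09 2 were the lowest of their groups, and the log2 fold change was -0.15 (SE 0.44, p adjusted by edgeR = 0.901). Tbx21, the transcription factor T-bet, had 1.56, 1.42, 1.78 and 0.377 CPM in vehicle and 1.56, 0.773 and 1.66 CPM in T09 mice. Eomes, its relative, had 0, 0.262, 0.191 and 0 CPM in vehicle and 0.142, 0.0552 and 0.118 CPM in T09 mice, too low to be tested.

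Summed over the 35 genes, the level was 584, 489, 715 and 158 CPM in vehicle and 518, 323 and 506 CPM in T09 mice. The means were 486 ± 238 (SD, n = 4) and 449 ± 109 CPM (SD, n = 3), and the T09 values lay inside the vehicle range. The shares of the role groups in this sum moved less than the sum itself. Cytotoxic effectors held 47.7% to 54.9% of it, chemokines 8.88% to 12.0%, the CD3 chains 6.65% to 8.35% and the coreceptors 7.19% to 9.01%. Proximal signalling genes held 5.94% to 9.28%, with vehicle 1 lowest and T09 3 highest. NK-type lectin receptors held 1.27% to 1.88% in vehicle and 1.63%, 2.58% and 2.54% in T09 1 to 3, so that T09 2 and 3 lay above all vehicle libraries and T09 1 among them.

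**Figure D3:**
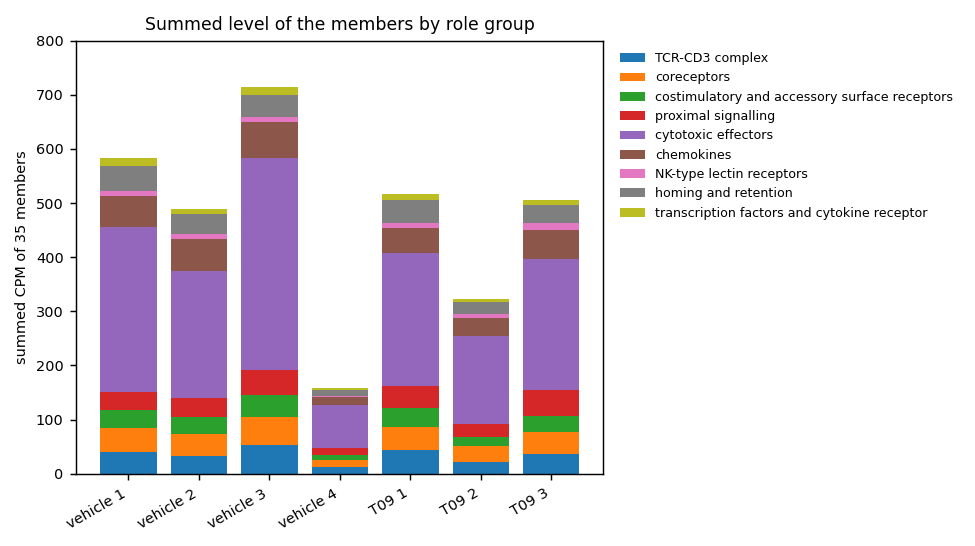
Summed CPM of the 35 genes in each library, stacked by role group. The bar of vehicle 4 reaches 158 CPM and those of the other 6 libraries 323 to 715 CPM, with cytotoxic effectors as the largest block in each.

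The shared variation was described by dividing each gene's count by the summed count of the 4 CD3 chains in the same library. For the 26 tested genes other than these chains, the highest library exceeded the lowest by a median of 4.75-fold in CPM and of 1.71-fold per CD3 count. The spread was narrower per CD3 count for 25 of 26 genes, Fasl being the exception. Nkg7, Cd7 and Itgb7 had the narrowest spreads per CD3 count, 1.28-fold, 1.32-fold and 1.34-fold. Gzma per CD3 count was 5.10, 5.12, 5.34 and 4.70 in vehicle and 3.87, 5.40 and 4.93 in T09 mice, so that vehicle 4 no longer stood apart. The genes that kept wide spreads were Cd5 (4.84-fold), Cd4 (4.70-fold) and Xcl1 (4.6-fold). All of these values share the CD3 counts of the same 7 libraries and are given as a description.

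**Figure D4:**
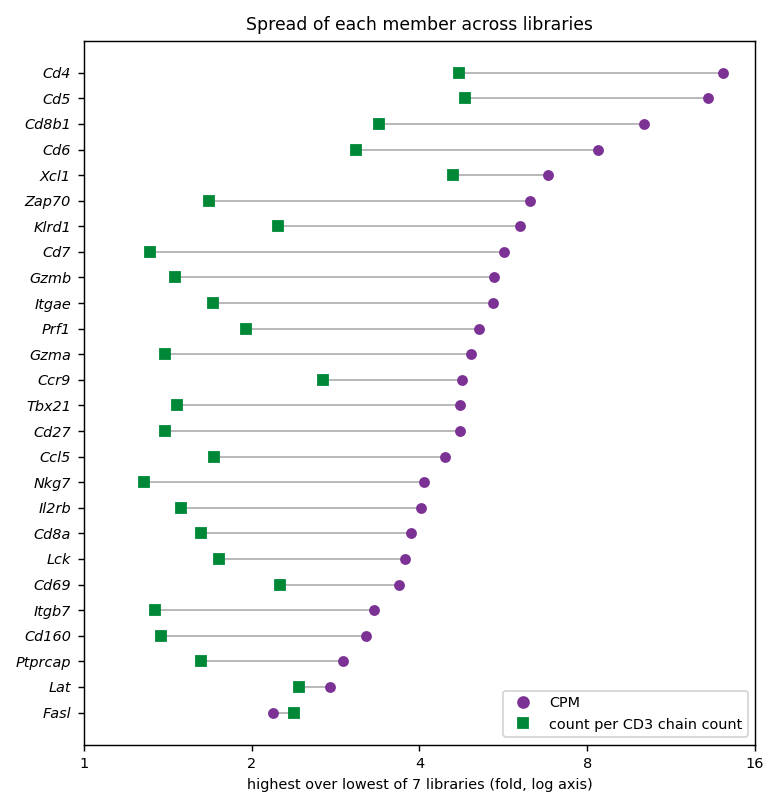
Highest over lowest of the 7 libraries for 26 tested genes, in CPM (circles) and per count of the 4 CD3 chains (squares), on a log axis. The squares lie to the left for 25 of 26 genes, with medians of 1.71-fold against 4.75-fold.

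Genes of other leukocytes moved with part of this pattern. All 10 pan-leukocyte markers, which T cells also express, were lowest in vehicle 4 and highest in T09 1. Ptprc, the CD45 phosphatase, had 31.8, 27.1, 24.1 and 8.25 CPM in vehicle and 37.4, 16.7 and 30.8 CPM in T09 mice. Vehicle 4 was also the highest library for all 7 adipocyte genes and for 8 of 12 smooth muscle genes. In T09 1, all 12 genes of B and plasma cells, 14 of 15 genes of macrophages and dendritic cells and 8 of 10 endothelial genes were at their highest. Vehicle 1 was the highest for all 12 pancreatic acinar genes, which took 0.0978% of its counts and at most 0.00140% elsewhere. The B cell marker Ms4a1, named after its values were seen, had 2.55 CPM in T09 1 and at most 0.237 CPM elsewhere, and the follicle gene Cr2, likewise, had 1.28 and at most 0.0592 CPM. The follicle list as a whole did not share this, with 6 of its 13 genes highest in T09 1. It took 0.00331% of counts in T09 1 and 0.00403% in vehicle 2, its highest share. Between T09 and vehicle, edgeR called 0 of 10 pan-leukocyte genes, 0 of 5 tested genes of B and plasma cells, 0 of 13 of macrophages and dendritic cells and 0 of 6 of adipocytes, and all 12 smooth muscle genes were lower. Over all genes tested, 4.31% were called. The pan-leukocyte genes took 0.00501% to 0.0160% of counts in vehicle and 0.00772% to 0.0243% in T09 libraries. The B and plasma cell genes took 0.00838% to 0.0370% in vehicle and 0.0146% to 0.0782% in T09 libraries. Of these 12, 0 were at a count of 0 in T09 1 and 1 to 5 in the other libraries, Ms4a1 being at 0 in vehicle 1 and 3 and Cr2 in all libraries but T09 1 and 3. Vehicle 4 and T09 1 also stood out in the lymphocyte genes, vehicle 4 with low values of nearly all of them. T09 1 had the highest value for 10 of the 35 genes, among them Cd4, Cd28, Cd2 and Klrk1, and vehicle 3 for 16. What part other cells have in those values was not tested. Ncr1, a marker of natural killer and innate lymphoid cells that share several of these genes and that was named after its values were seen, was at 0 to 0.331 CPM. The 9 genes of innate lymphoid cells together took 0.00817% to 0.0106% of counts in vehicle and 0.00929% to 0.0128% in T09 libraries. Of the 6 tested, edgeR called 0. Ncr1 alone therefore does not show how many of these cells the samples held.

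**Figure D5:**
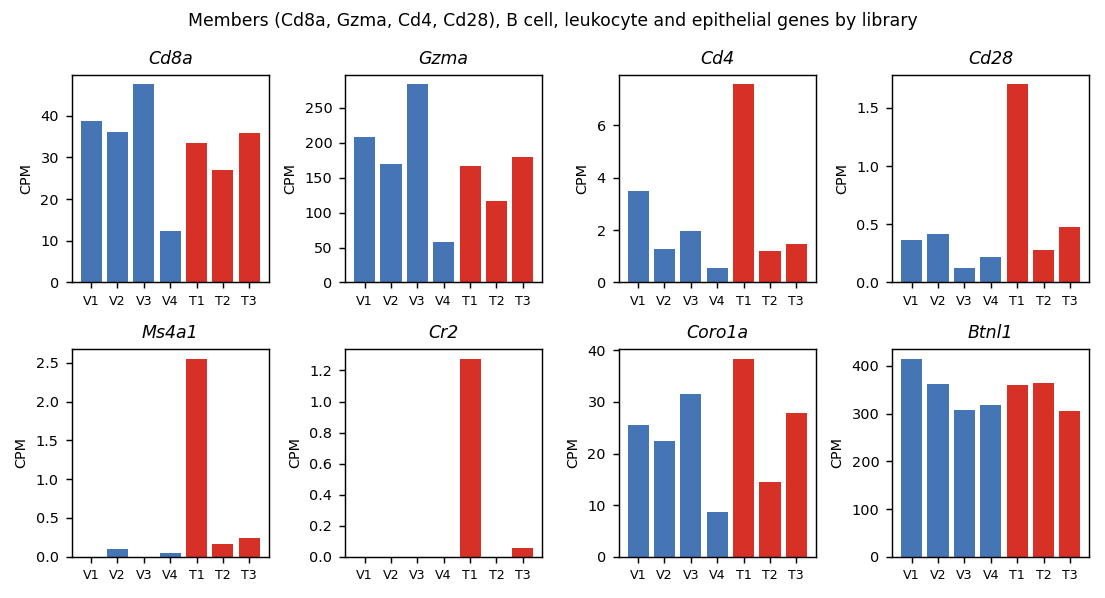
CPM of 8 genes in vehicle 1 to 4 (V1 to V4, blue) and T09 1 to 3 (T1 to T3, red), each panel with its own axis from 0. Vehicle 4 has the shortest bars for Cd8a, Gzma, Cd4 and Coro1a, T09 1 has the tallest for Cd4, Cd28, Ms4a1, Cr2 and Coro1a, and Btnl1 varies little.

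Leaving out vehicle 4 moved the group's median log2 fold change to -0.22, with 6 of 30 genes above 0 and 24 below, and 0 of 30 were called against 2.03% of 14043 genes. At an unadjusted p under 0.05, 5 of 30 genes were lower with T09, against 13.6% of all genes in either direction. They were Gzmb (-0.57), Itgae (-0.55), Gzma (-0.52), Ccl5 (-0.47) and Cd8a (-0.35), all log2 fold changes. With T09 1 also left out, an alternative chosen after the data were examined, the median was -0.41. At an unadjusted p under 0.05, 6 of 30 genes were then lower, against 20.4% of all genes in either direction. Itgae was the 1 gene of 30 called, with a log2 fold change of -0.80 (p adjusted by edgeR = 0.0467), against 3.76% of all genes. Leaving out vehicle 1, 2 or 3 alone moved the median to 0.13, 0.11 and 0.21, with 23, 19 and 28 of 30 genes above 0. Leaving out a T09 mouse moved the median too, to -0.13 without T09 1, to 0.36 without T09 2 and to -0.12 without T09 3. Without T09 2, 25 of 30 genes were above 0 and 5 below. The direction of the group's median thus depended on single libraries of both groups.

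Other genes of T cell function were read from lists. Of the T cell receptor constant genes, 7 were tested and 0 called, with a median log2 fold change of 0.05. Tcrg-C2, a gamma constant gene, had 9.86, 11.6, 11.3 and 3.07 CPM in vehicle and 8.65, 7.73 and 13.1 CPM in T09 mice, and Trbc2, a beta constant gene, ranged from 2.91 to 11.5 CPM. Both were lowest in vehicle 4. The ratio of Trdc, the delta constant gene, to Trbc1 plus Trbc2 was 0.297 ± 0.0990 in vehicle (SD, n = 4) and 0.251 ± 0.0487 in T09 (SD, n = 3), two-sided exact permutation p = 0.543, adjusted over 5 ratios 0.905. Reads shared by near-identical constant genes make these values uncertain. Of other T cell receptor signalling genes 0 of 22 were called, of other cytotoxic and NK receptor genes 0 of 11, of T cell cytokines 0 of 3 and of naive, helper and regulatory T cell genes 0 of 10. Over all genes tested, 4.31% were called, 1.44% higher and 2.87% lower. Of genes that the epithelium uses to address intraepithelial lymphocytes, 1 of 18 was higher and 0 lower. That gene was Il18, a cytokine of the interleukin 1 family, with 129, 119, 83.5 and 99.9 CPM in vehicle and 178, 185 and 240 CPM in T09 mice. The groups did not overlap (log2 fold change 0.90, SE 0.16, p adjusted by edgeR = 0.0176). T09 was higher without overlap for 7.07% of all genes tested. The epithelial gene Btnl1, which maintains gamma delta intraepithelial cells and was named after its values were seen, had 307 to 415 CPM in vehicle and 306 to 364 CPM in T09 mice. Of T cell activation and inhibition genes, 1 of 18 was higher, Cd38, an NAD-consuming surface enzyme, with 39.8, 42.6, 29.2 and 32.3 CPM in vehicle and 55.4, 50.6 and 58.3 CPM in T09 mice. Its groups did not overlap (log2 fold change 0.61, SE 0.14, p adjusted by edgeR = 0.0412). Without vehicle 4, neither was called, with log2 fold changes of 0.86 for Il18 (p adjusted by edgeR = 0.0581) and 0.55 for Cd38 (p adjusted by edgeR = 0.118). Without T09 1 the activation list had 0 higher and 3 lower, and the epithelial list 2 higher and 0 lower. In that fit 819 of 14525 genes were called, 296 higher and 523 lower. Of 6 genes of the aryl hydrocarbon receptor, which sustains intraepithelial lymphocytes, 0 were called.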

How the data were processed

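Libraries were made from polyadenylated RNA with random priming, per the labels' protocols. Tools named in the submitters' processing notes, with no role or order, are HTSeq 0.6.1, DESeq 1.18.0, TopHat2 2.0.12 and Bowtie2 2.2.3. For genome build, annotation, strand and shared reads the setting is not given in the sources used, so values of antisense, overlapping or near-identical genes are uncertain. Per the file headers, the deposited values are raw counts and the authors' FPKM. Its coordinates overlap those of GENCODE M21 (GRCm38) for 35 of 35 genes and equal them for 25. FPKM equalled count over listed length and total within 0.1% for 10 of 35 genes, so another length was used for the others, and FPKM served only to order levels between genes.

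T09 was compared with vehicle in edgeR 4.0.16 under R 4.3.3 (filterByExpr, TMM, glmQLFit, glmQLFTest), and p-values were adjusted by Benjamini-Hochberg over all genes kept. An SE is the size of the log2 fold change over the square root of F. The fit was tested on simulated data. Ratios and permutation tests used Python 3.11.15. Replicate numbers were not used to pair the libraries in the main fit, since the labels do not say what they mark. Alternatives tried were scaling by library size alone, DESeq2's size factors, DESeq2 1.42.0, limma-voom (limma 3.58.1), no filter, at least 1 CPM in 3 libraries, the replicate number as a block, 0.5 added to ratio counts, and leaving out each library.

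The genes and lists were chosen with earlier results of these data known. Values in every library are given for the 3 most abundant genes of each role, any gene called and the 6 with the smallest p. Other list genes are named where called, except the 12 smooth muscle genes, which are given as a count. Where a list had none called, up to 2 of its most abundant genes are named. Ms4a1, Cr2, Ncr1 and Btnl1 were named after their values were seen.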

Additional observations from a re-analysis of the deposited data

Results flagged for a closer look

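Of 36 sets of 4 vehicle values examined, 4 held a value far from the other 3 by Dixon's test, and chance flags about 1 in 20 such sets, or 1.8 of 36. All sets come from the same 4 libraries, so the flags are not independent and the 2 counts cannot be weighed against each other. In 3 of the 4 flagged sets vehicle 4 was far below the rest. Cd8b1 had 0.269 CPM there, with the next value at 1.97 CPM. Klrd1 had 2.10 CPM, with the next at 8.97 CPM. Lck had 4.31 CPM, with the next at 13.4 CPM. The ratio of Cd4 to Cd8a counts was flagged at the high end, with 0.0898 in vehicle 1 and 0.0439 as the next value.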

How the results depend on the processing

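Of the genes tested, 0 were called under every setting tried except with vehicle 4 and T09 1 both left out, where 1 was called (Itgae). All genes called numbered 614, 1091 with DESeq2 and 251 to 819 when libraries were left out in turn. The correlations of same-numbered libraries, 0.26, 0.03 and -0.03, did not show that the numbers pair the mice. With the replicate number as a block, vehicle 4 has a level of its own and adds nothing to the comparison. Then 290 genes were called, 0 of them among the 30, whose median log2 fold change was -0.29 with 26 below 0. At an unadjusted p under 0.05 were 8 of the 30 (2092 of all 14250 genes), with the lowest p adjusted by edgeR, 0.0781, for Gzma (-0.51), and Lck was at -0.033. Directions of small changes turned. With limma-voom, 26 of the 30 genes were above 0 and 4 below. Its log2 fold changes were 0.13 for Cd3g, 0.089 for Cd8a, 0.053 for Cd7, 0.015 for Ccl5, 0.0071 for Itgae and 0.0056 for Il2rb. Without vehicle 4 and T09 1, they were -0.73 for Cd4 and -0.057 for Lck. Leaving out each library in turn, they ranged from -0.34 to 0.22 for Cd3g, -0.35 to 0.14 for Cd8a, -0.42 to 1.46 for Cd4, -0.50 to 0.11 for Cd7, -0.016 to 0.42 for Lck, -0.52 to 0.086 for Gzma, -0.57 to 0.0060 for Gzmb, -0.47 to 0.015 for Ccl5, -0.55 to 0.0098 for Itgae and -0.44 to 0.10 for Il2rb. The log2 differences of the ratios ranged from -0.18 to 1.05 for Cd4 to Cd8a, -0.14 to 0.11 for Gzmb to Gzma and -0.078 to 0.15 for Itgae to Cd3e. The cause was not tested. With no filter, Cd2, Cd28, Eomes, Klrk1 and Sh2d1a could be tested too, and 1 of 35 genes was under an unadjusted p of 0.05 (3226 of all 24056). It was Cd28, with a log2 fold change of 1.51 (edgeR adjusted p = 0.3003), whose high value is that of T09 1. These 5 genes rest on few counts.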
